A study of Homo sapiens with 15 samples.

Results

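The RUNX1 locus was followed here as the set of ChIP-seq peaks whose summits lie on chromosome 21 between 36050000 and 36700000 of the human genome build hg19. Positions alone chose the members, with no measured strength. They are 101 of the 198298 peaks in 6 deposited lists: 18 GATA2, 9 RUNX1 and 20 SMC3 peaks from cells with wild-type (WT) RAD21, and 30 GATA2, 13 RUNX1 and 11 SMC3 peaks from cells with RAD21 Q592*. Joined where they overlap by at least 1 bp, the 101 peaks form 41 sites.

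All cells were TF-1, a human erythroleukemia line grown with cytokines. The WT groups carried a doxycycline-inducible vector for wild-type RAD21 and the Q592* groups carried one for RAD21 with a premature stop codon, Q592*. Both were kept in doxycycline for 6 days, so the WT groups are transduced controls and no group analysed here is untransduced. The labels do not say whether the cell's own RAD21 was still made or how many transductions or clones stand behind a line. The labels list 11 ChIP libraries, 2 for each line and target except 1 for Q592* RUNX1, and 4 inputs, and each target and line has 1 peak list over its libraries. No spread between replicates can therefore be given, no test between the lines was run, and each difference below is between 2 lists. For RUNX1 the Q592* list has 1 labelled library and the WT list 2.

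RUNX1 is a DNA-binding transcription factor of blood stem and progenitor cells, and GATA2 is a zinc finger factor that often binds near it. RAD21 and SMC3 belong to cohesin, the ring complex that holds chromatin loops and is often stopped at CTCF sites. RUNX1 is transcribed from a distal promoter, P1, and a proximal promoter, P2, with a long intron between them. That intron holds an enhancer active in blood stem cells that is known to bind GATA2 and RUNX1 itself. The gene runs towards lower coordinates, so P1 has the higher position. The RefSeq gene table (build GRCh38.p14) was used for names and order only, with genes ordered by start position. In it CLIC6, LINC00160, LOC107985515 and LINC01426 come before RUNX1, and RUNX1-AS1 and RUNX1-IT1 come next after it. That order does not show whether a gene lies beyond RUNX1 or starts inside it. No hg19 annotation was used here. P1, P2, the ends of the gene and the intronic enhancer were placed among the peaks from general knowledge of the locus, and no distance to a transcript start is given.

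Of the 2 promoters, RefSeq's promoter table holds the one that lies inside the gene's span, P2, and the 250 bases before its start are shown because RUNX1 was called at P1 in both lines and at no peak beside P2. Capitals mark the single match to the letters GATA, on the strand shown.
RUNX1 P2 promoter, minus strand of chromosome 21, GRCh38.p14: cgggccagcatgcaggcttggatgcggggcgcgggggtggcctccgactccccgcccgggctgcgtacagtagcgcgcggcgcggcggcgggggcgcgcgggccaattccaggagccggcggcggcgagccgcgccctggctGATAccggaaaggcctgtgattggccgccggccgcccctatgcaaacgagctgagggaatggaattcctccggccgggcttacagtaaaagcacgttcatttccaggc
The sequence is 71.2% G or C and holds 32 CG pairs, where the median of 35116 promoter windows of the same length is 58.0% and 11. GATA on either strand was found in 45.6% of those windows. The longer forms AGATAA or TGATAA, which contain GATA, were found in 14.6% of the windows and not in this one. The RUNX letters TGTGGT or TGCGGT, on either strand, were found in 16.3% of the windows and not in this one.

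Strength is given in 2 forms. The fold enrichment and −log10 q of a peak are the authors' own values and rank it within its list. The number of ChIP reads over a summit and the local background there were recovered from the deposited fold and −log10 p, and the reads came out whole for 101 of 101 peaks, to within 0.000209 of a read. Both are given as multiples of the list's genome-wide background level, called summit coverage and local background below, which takes out sequencing depth. That level corresponds to 5.97 and 6.16 ChIP reads over a position for GATA2 (WT and Q592*), 5.39 and 5.65 for RUNX1 and 4.83 and 5.23 for SMC3. Intervals are 95%, exact Poisson for reads and exact binomial for ratios of reads, and cover counting error only. The lowest −log10 q of a list was 2.00 to 2.05, so "no peak" means below that threshold, not absent.

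The locus held more peaks than most stretches of its size. Genome-wide windows of the same 650000 bp had a median of 7 GATA2, 1 RUNX1 and 8 SMC3 peaks in WT and 11, 3 and 7 in Q592*. Of 4297 such windows, 3.70% held at least the 9 WT RUNX1 peaks counted here and 2.54% at least the 13 of Q592*. For GATA2 the shares were 15.2% (WT) and 10.9% (Q592*), and for SMC3 11.7% and 27.1%. RUNX1 peaks therefore stood out most from the usual number, and SMC3 peaks of Q592* least. Of the 41 sites, 19 were called in a single list, 10 in 2 lists, and 12 in at least 3. Over the genome 36.9%, 44.9% and 18.2% of the sites joined in the same way fell in these classes. The longest stretch without a peak, 110682 bp between 36578655 and 36689338, lies upstream of the gene.

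**Figure D1:**
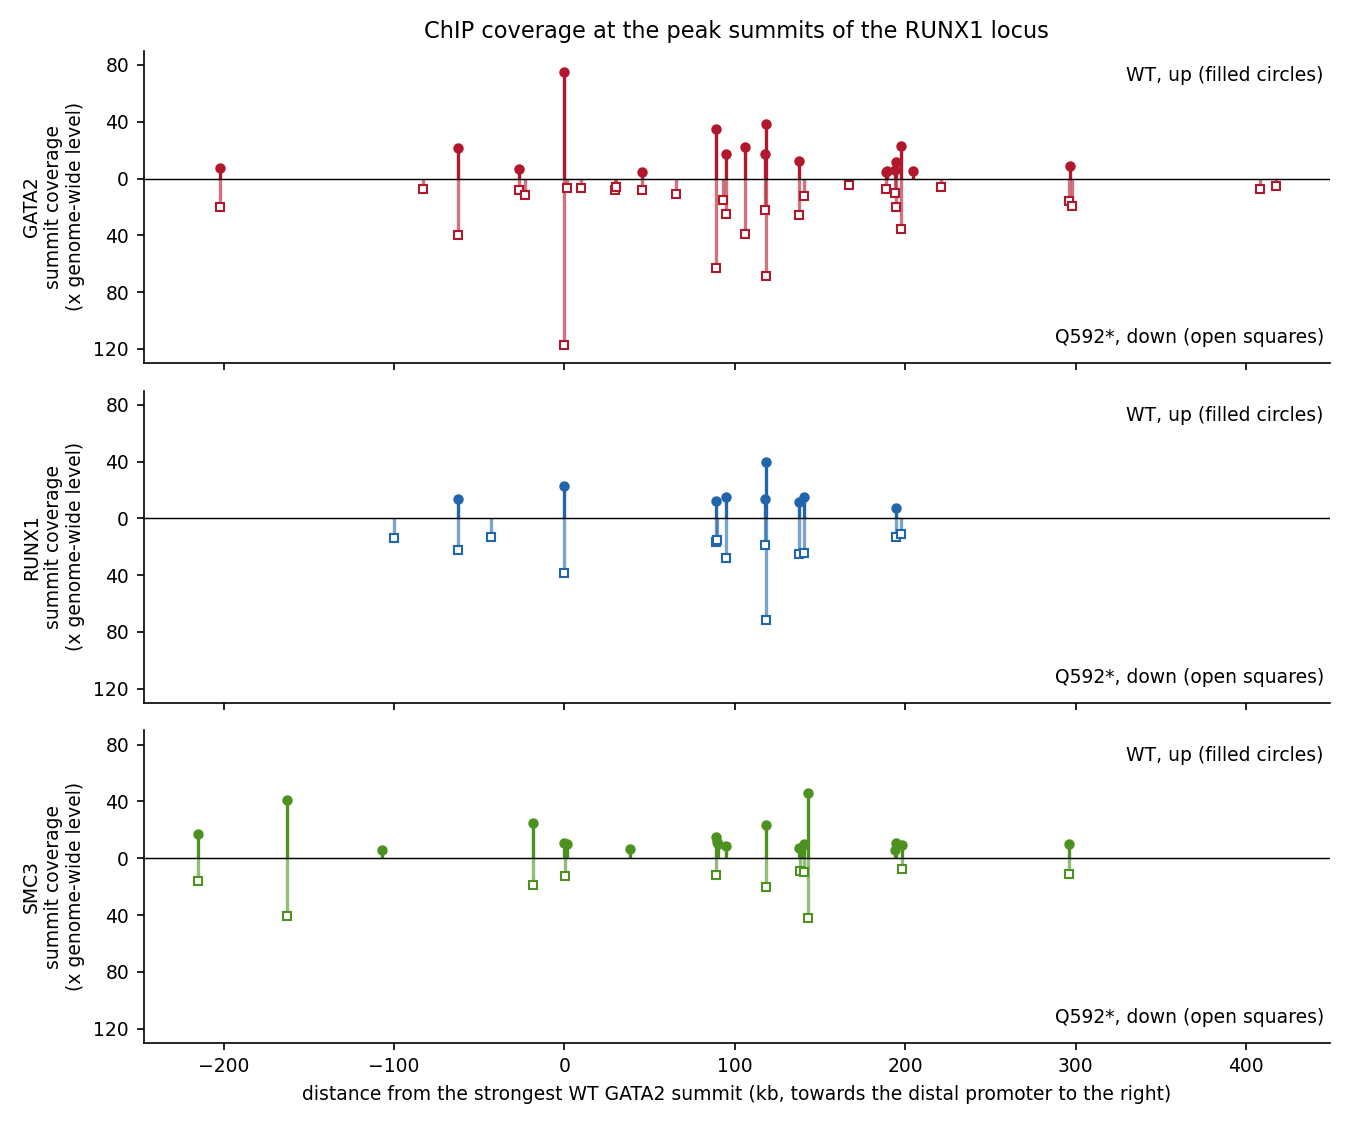
Summit coverage of the 101 peaks (vertical axis, multiples of the genome-wide level of each list) against distance in kb from the strongest WT GATA2 summit, with WT drawn upward and Q592* downward. The tallest GATA2 peaks stand at 0 kb (74.8 in WT, 117 in Q592*), the tallest RUNX1 peaks at the intronic enhancer (40.04 and 71.8), and the tallest SMC3 peaks next to P1 and beyond the 3′ end of the gene.

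The strongest GATA2 peak of the locus lay in the intron, between P2 and the known enhancer, at chr21:36280176-36281572. WT GATA2 had 447 reads at its summit (407 to 490), a summit coverage of 74.8, and ranked 15 of 38962 in its list with a fold of 36.9. Q592* GATA2 had 722 reads (670 to 777), a coverage of 117, and ranked 19 of 59009 with a fold of 40.9. Both lists thus held this site among their very strongest peaks. RUNX1 was called there with 124 reads in WT (coverage 23.0, rank 264 of 9603) and 218 in Q592* (coverage 38.6, rank 348 of 15582). SMC3 was called with 51 reads in WT (coverage 10.6) and 64 in Q592* (coverage 12.2). The Q592* to WT ratio of coverage was 1.57 for GATA2 (1.39 to 1.77), 1.68 for RUNX1 (1.34 to 2.11) and 1.16 for SMC3 (0.79 to 1.71). For SMC3 that interval includes 1. The GATA2 summits of the lines were 11 bp apart, the RUNX1 summits 5 bp and the SMC3 summits 307 bp, the largest distance of the 10 SMC3 pairs.

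The intronic enhancer was the strongest RUNX1 site of the locus in Q592* by −log10 q, and in both lines by coverage, at chr21:36398993-36399358. It is 1 of 3 sites called in all 6 lists. RUNX1 had 216 reads in WT (coverage 40.04, rank 1103 of 9603) and 406 in Q592* (coverage 71.8, rank 130 of 15582). GATA2 had 228 reads in WT (coverage 38.2) and 421 in Q592* (coverage 68.3). SMC3 had 113 reads in WT (coverage 23.4) and 104 in Q592* (coverage 19.9). The Q592* to WT ratio was 1.79 for RUNX1 (1.52 to 2.13), 1.79 for GATA2 (1.52 to 2.11) and 0.85 for SMC3 (0.65 to 1.12). GATA2 and RUNX1 were both higher in Q592* beyond counting error, and the SMC3 interval includes 1. A second site 532 bp away, chr21:36398425-36398764, carried GATA2 (105 reads in WT, 135 in Q592*) and RUNX1 (75 and 107 reads) but no SMC3 peak in either line.

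The enhancer also had the highest local background of the locus in each list, tied in Q592* SMC3 with the site beside P1. At its summits the background was a whole number of reads, the form that MACS2's narrowest background takes. It was 58 reads for WT GATA2 (44.0 to 74.98), 56 for WT RUNX1 (42.3 to 72.7) and 40 for WT SMC3 (28.6 to 54.5). In Q592* it was 38, 29 and 29 reads. As multiples of the genome-wide level these are 10.96, 12.5 and 9.88 in WT and 8.38, 7.02 and 7.14 in Q592*. In each list 96.4% to 99.6% of the peaks had a lower one. At the second site 532 bp away it was 3.42 to 3.84. The deposited fold divides by this background. It was 3.15 in WT and 9.92 in Q592* for RUNX1, a ratio of 3.15, and 3.44 and 7.97 for GATA2, a ratio of 2.32. With the background subtracted, the ratio of coverage was 2.36 for RUNX1 and 2.20 for GATA2. The labels list 4 inputs for 6 lists, so lists can share input reads. Backgrounds of different lists are therefore not independent measurements. What raises the background at this element was not tested.

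**Figure D2:**
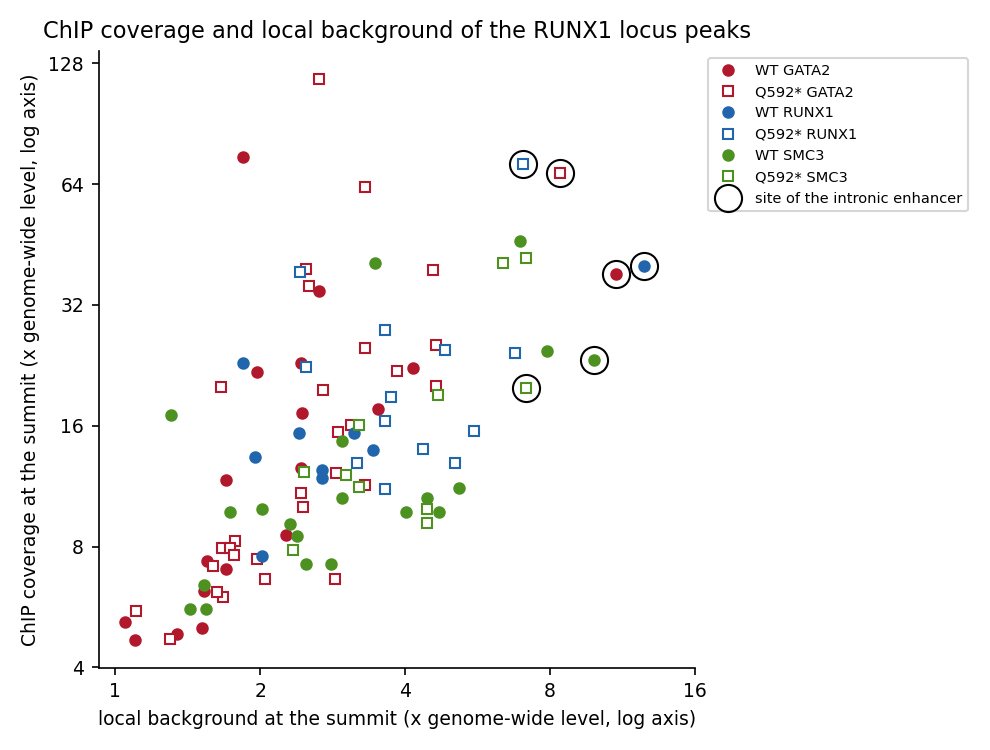
ChIP coverage at the summit (vertical, log axis) against local background (horizontal, log axis), both in multiples of the genome-wide level, for the 101 peaks by list. The 6 circled peaks of the intronic enhancer have local backgrounds of 7.02 to 12.5, while the GATA2 peaks of 74.8 and 117 have 1.84 and 2.65.

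At the distal promoter P1 RUNX1 was called in both lines, at chr21:36421358-36422045. RUNX1 had 83 reads in WT (coverage 15.4) and 137 in Q592* (coverage 24.2), a ratio of 1.58 (1.19 to 2.09). The deposited folds run the other way, at 4.65 in WT and 3.49 in Q592*, and the local background was 3.14 in WT and 6.78 in Q592*. GATA2 was called in Q592* (75 reads, coverage 12.2) and not in WT, and its peak did not overlap the RUNX1 peak of Q592*. SMC3 was weak in both, with folds of 2.02 in WT and 2.18 in Q592*. On the side of P1 towards the intron, chr21:36418385-36418933 carried GATA2 with 75 reads in WT and 157 in Q592* (ratio 2.03, 1.53 to 2.71). RUNX1 had 64 and 140 reads there, and its ratio of 2.09 (1.54 to 2.85) was the highest of the 9 RUNX1 pairs. SMC3 was called there in WT, with 35 reads, and not in Q592*. Beyond P1, outside the gene, chr21:36423450-36424009 carried SMC3 alone, at 223 reads in WT (coverage 46.2) and 219 in Q592* (coverage 41.9). This was the highest SMC3 coverage of the locus in both lines, 2201 bp from the P1 site by summit, and its ratio of 0.91 (0.75 to 1.10) includes 1.

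Near the proximal promoter P2 SMC3 was the target called in both lines, at chr21:36262416-36262717. It had 119 reads in WT (coverage 24.6) and 100 in Q592* (coverage 19.1), a ratio of 0.78 (0.59 to 1.02), the lowest of the 10 SMC3 pairs. The local background was high there too, at 32 background reads in WT (7.91 times the genome-wide level) and 19 in Q592* (4.68). Neither GATA2 nor RUNX1 had a peak at that site in either line. The nearest GATA2 peaks towards the 3′ end were weak, and are described for their position after their values had been seen. They lay at chr21:36254332-36254700, with 42 reads in WT and 51 in Q592*, and at chr21:36257488-36257675, with 70 reads in Q592* and no WT peak. The P2 and P1 sites are 158.9 kb apart by summit, and the strongest GATA2 peak lies 18.4 kb from the P2 site.

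Further sites of the intron carried GATA2 and RUNX1 together. At chr21:36369481-36370831 GATA2 had 207 reads in WT (coverage 34.6) and 387 in Q592* (coverage 62.8), a ratio of 1.81 (1.53 to 2.16), over peaks 1251 and 1305 bp wide. RUNX1 had 67 reads in WT and 93 in Q592*, and its ratio of 1.32 (0.96 to 1.84) includes 1. SMC3 was called in both lines with 71 and 63 reads at summits 100 bp apart, and in WT at 2 more summits within the site. At chr21:36375739-36376140, GATA2 had 103 reads in WT and 154 in Q592*, and RUNX1 83 and 157. The RUNX1 ratio there was 1.80 (1.37 to 2.38), and SMC3 was called in WT (41 reads) and not in Q592*. Between these sites and the enhancer, at a site also chosen after its values had been seen, chr21:36386563-36387013 carried GATA2 alone, with 133 and 241 reads (ratio 1.76, 1.42 to 2.19). Nearer the 3′ end of the gene, past P2 and so outside that intron, lay chr21:36218018-36218456. It carried GATA2 (130 reads in WT, 243 in Q592*) and RUNX1 (72 and 127 reads) with no SMC3 peak in either line. Its GATA2 coverage was 21.8 in WT and 39.4 in Q592*.

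Upstream of P1 the strongest GATA2 site was chr21:36478578-36479039. GATA2 had 137 reads in WT (coverage 22.9) and 220 in Q592* (coverage 35.7), a ratio of 1.56 (1.25 to 1.94). SMC3 was called in both lines, with 44 and 41 reads. RUNX1 was called in Q592* alone, with 63 reads and a fold of 2.94. A neighbouring site, chr21:36475258-36475725, carried GATA2 (70 and 124 reads) and RUNX1 (41 and 73 reads) in both lines and SMC3 in WT alone (51 reads). The deposited folds there were lower in Q592*, at 6.30 in WT and 4.19 in Q592* for GATA2 and 3.49 and 2.47 for RUNX1. The local background was 1.70 in WT and 4.63 in Q592* for GATA2, and 2.02 and 5.08 for RUNX1. Next to it, chr21:36474759-36475162 carried GATA2 in both lines and SMC3 in WT. Farther upstream, chr21:36577079-36577510 carried GATA2 and SMC3 in both lines, with GATA2 at 51 reads in WT and 99 in Q592*.

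**Figure D3:**
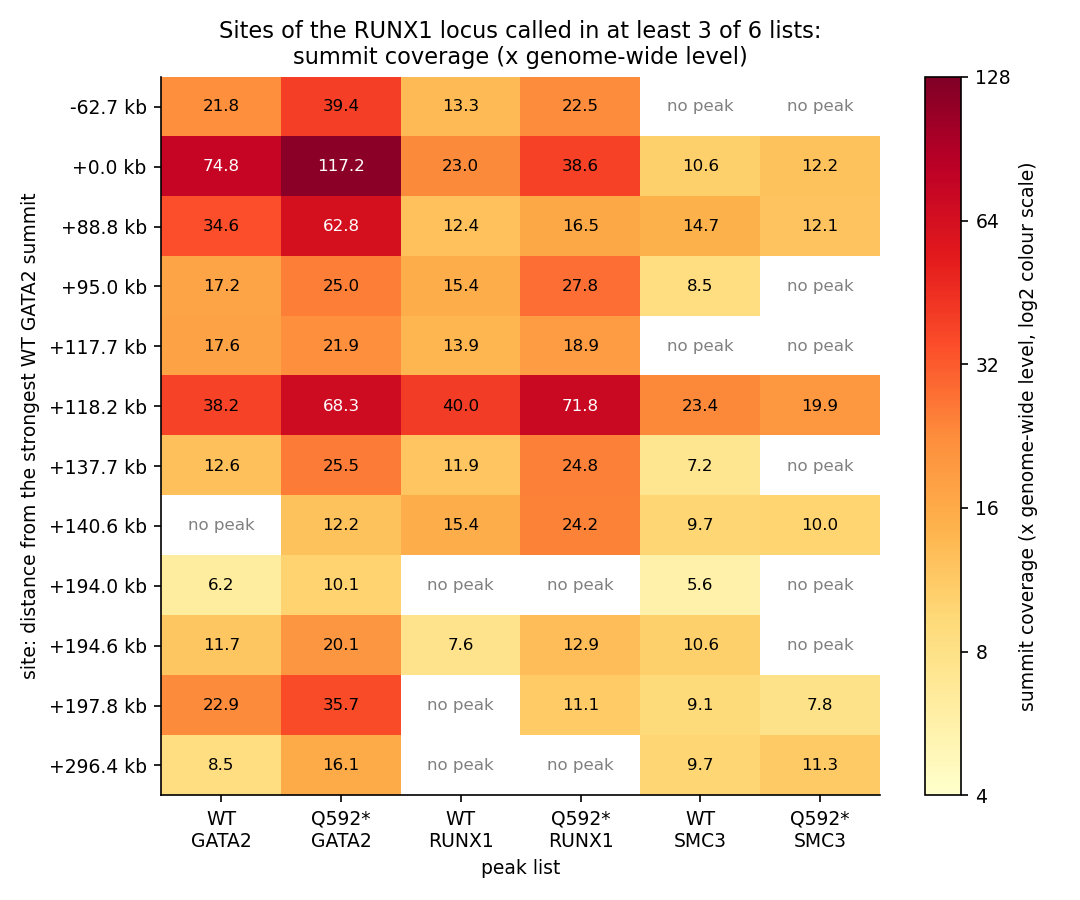
Summit coverage (multiples of the genome-wide level, log2 colour scale) of the 12 sites called in at least 3 lists, one row a site by its distance from the strongest WT GATA2 summit and one column a list. GATA2 and RUNX1 are higher in Q592* than in WT in every row where both lines were called. SMC3 is between 5.59 and 23.4 in WT, and 4 of the WT squares have no counterpart in Q592*.

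SMC3 was also called without either factor. By −log10 q, the strongest sites of this kind were the one next to P1 and a pair beyond the 3′ end of RUNX1. By coverage, the site near P2 (24.6 in WT, 19.1 in Q592*) was above the weaker of that pair (17.0 and 16.1). At chr21:36117797-36118199 SMC3 had 197 reads in WT (coverage 40.8, rank 3060 of 42353) and 213 in Q592* (coverage 40.8, rank 5744 of 32789). The ratio was 1.00 (0.82 to 1.22), whereas the deposited folds were 11.1 and 6.17 and the local backgrounds 3.46 and 6.40. At chr21:36065509-36065963 it had 82 and 84 reads, a ratio of 0.95 (0.69 to 1.30). The 3 strongest SMC3 peaks of each line by −log10 q, these and the one next to P1, carried no GATA2 or RUNX1 peak.

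By line, GATA2 and RUNX1 summit coverage was higher in Q592* at every region of the locus called in both lines. This held at 16 of 16 GATA2 regions, with a median ratio of 1.68 (1.18 to 2.71), and the counting interval lay above 1 at 13. For RUNX1 it was 9 of 9, with a median of 1.68 (1.32 to 2.09), and 8 intervals lay above 1. For SMC3, 3 of 10 were higher in Q592*, the median was 0.93 (0.78 to 1.16), and all 10 intervals included 1. Over all shared regions of the genome the median GATA2 ratio was 1.67 and 97.7% of regions were higher in Q592*. The RUNX1 median was 1.53 with 96.5% higher, and the SMC3 median 0.90 with 28.7% higher. The medians of the locus were thus near the genome-wide difference between the lists for each target, as were the medians for the rest of chromosome 21 (1.65, 1.499 and 0.93). With reads scaled to library size at an assumed fragment length the SMC3 median became 1.11, above 1, so its direction depends on the scaling. It stayed below 1 with the local background subtracted (0.90) and from the deposited folds (0.87). From the deposited folds the medians were 1.20 for GATA2 and 1.22 for RUNX1, and fewer regions were higher in Q592*: 15 of 16 for GATA2 and 6 of 9 for RUNX1, beside 80.6% and 73.2% of the shared regions of the genome.

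The largest GATA2 ratio was outside the gene. It was chosen for description after its value had been seen: at chr21:36078543-36079015, beyond the 3′ end, GATA2 had 44 reads in WT and 123 in Q592*. Its ratio of 2.71 (1.91 to 3.92) was higher than that of 98.4% of the shared GATA2 regions of the genome, and the local background was alike, at 1.55 and 1.66. The summits of the lines were 203 bp apart there. The lowest GATA2 ratios were at the weak site near P2 (1.18, 0.77 to 1.82) and at the site beside the enhancer (1.25, 0.96 to 1.62), and both intervals include 1.

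**Figure D4:**
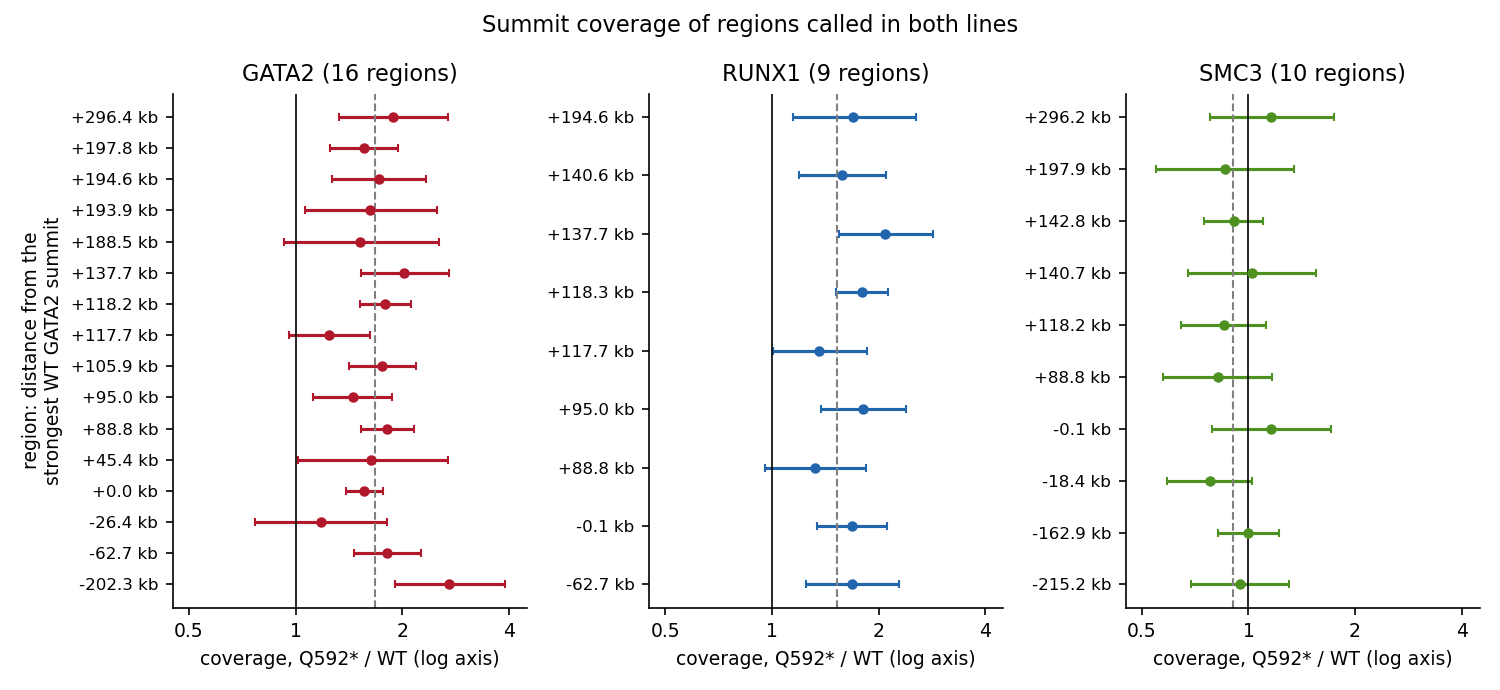
Ratio of summit coverage, Q592* over WT (horizontal, log axis), for each region called in both lines, ordered by distance from the strongest WT GATA2 summit; bars are 95% exact binomial intervals of the read counts, the solid line is 1 and the dashed line the genome-wide median. All GATA2 and RUNX1 points lie above 1, and all SMC3 intervals include 1.

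Joined per target, the window held 31 GATA2 regions: 16 in both lines, 14 in Q592* only and 1 in WT only. The genome-wide shares of these classes were 51.9%, 40.1% and 7.96%, so the makeup of the locus is near that background. The 14 GATA2 regions of Q592* only had a median −log10 q of 8.62. By p, 3 of them were above the midpoint of their list, beside 18.4% of such peaks over the genome. The strongest, named like the others of this paragraph after their values had been seen, was chr21:36578413-36578655 upstream of the gene, with 121 reads and a fold of 6.80. Next came chr21:36373787-36373999 in the intron, with 95 reads and a fold of 4.997, and the GATA2 peak at P1. The other 11 had folds from 2.23 to 4.34 and include the 2 at the upstream edge of the window. The region of WT only, chr21:36485404-36485636 upstream of P1, had 31 reads and a fold of 4.36. Of the 5 sites with GATA2 alone in both lines, those not described above are chr21:36326187-36326570 in the intron, with 29 reads in WT and 49 in Q592*, and chr21:36469274-36470121 upstream of P1, with 28 and 44 reads at summits 407 bp apart. Of 13 RUNX1 regions, 9 were in both lines, 4 in Q592* only and 0 in WT only, beside genome-wide shares of 46.0%, 44.4% and 9.59%. The 4 were chr21:36180686-36180844 and chr21:36237909-36238096 with no other target, a second peak in chr21:36369481-36370831, and the one upstream of P1; their folds were 2.72 to 3.84. Of these 4, 0 were above the midpoint of the list, beside 26.5% over the genome. With the longer list cut to the length of the shorter, 6 GATA2 regions and 1 RUNX1 region of Q592* only were counted. Beside them stood 15 GATA2 and 8 RUNX1 regions in both lines, and 3 and 1 in WT only. The genome-wide shares above are for uncut lists, and none are given for cut lists.

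SMC3 went the other way in number. Of 21 SMC3 regions, 10 were in both lines, 10 in WT only and 1 in Q592* only, beside genome-wide shares of 65.6%, 27.6% and 6.84%. The 10 regions of WT only had −log10 q from 3.07 to 12.8. Of these, 0 were above the midpoint of the WT list, beside 2.73% over the genome, which is near. Among them, named after their values had been seen, chr21:36173999-36174205 (27 reads), chr21:36319273-36319414 (31 reads) and chr21:36419594-36419735 (35 reads) overlapped neither factor, in WT or in Q592*. The region of Q592* only, chr21:36419185-36419433, also named in that way, was near the threshold, with a −log10 q of 2.17. With lists of equal length 1 region of WT only was counted, beside 9 in both lines and 2 in Q592* only. No genome-wide shares of these classes are given at that setting. Of these 10 WT peaks, 6 overlapped a WT GATA2 peak, as did 5 of the 10 with a Q592* partner; genome-wide the shares were 46.2% and 16.0%. WT had GATA2 with SMC3 at 9 sites, and at 4 of these Q592* had GATA2 without SMC3, beside 49.0% over the genome: the one on the intron side of P1, chr21:36375739-36376140, chr21:36474759-36475162 and chr21:36475258-36475725. With lists of equal length this became 0 of 5 sites, beside 29.6% over the genome at that setting. With −log10 q of 10 or more it was 1 of 3 sites, beside 49.7%.

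GATA2, RUNX1 and SMC3 shared several sites of the locus. All 3 were found at 6 sites in WT, of 27 joined within that line, and at 5 of 37 in Q592*. Genome-wide 5.78% and 3.83% of sites carried all 3. The P1 site is among those of Q592*: SMC3 overlapped both factors there, but GATA2 and RUNX1 did not overlap each other. With peaks joined by summits within 200 bp, the sites numbered 6 in WT and 4 in Q592*. Of the RUNX1 peaks, 8 of 9 in WT and 10 of 13 in Q592* overlapped GATA2, beside 75.0% and 74.9% genome-wide, which is close. Of the GATA2 peaks, 8 of 18 in WT and 9 of 30 in Q592* overlapped RUNX1, beside 18.3% and 19.5%. SMC3 overlapped 9 of 18 GATA2 peaks in WT and 6 of 30 in Q592*, beside 26.3% and 11.7%. It overlapped 7 of 9 RUNX1 peaks in WT and 5 of 13 in Q592*, beside 49.2% and 25.1%. When only peaks with −log10 q of 10 or more were kept, the sites with all 3 targets numbered 2 in WT and 3 in Q592*, which reverses the order of the lines. Where GATA2 and RUNX1 peaks overlapped, their summits were a median of 15 bp apart in WT, with 8 of 8 within 50 bp. In Q592* the median was 34 bp, with 6 of 10 within 50 bp. The Q592* set also holds RUNX1 peaks without a WT partner, at 891 and 62 bp, so the lines are not compared at the same peaks. At the strongest GATA2 site the distance was 50 bp in WT and 56 bp in Q592*. No genome-wide distances are given.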

How the data were processed

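ChIP-seq peak lists for GATA2, RUNX1 and SMC3 were used. The labels' protocols give formaldehyde fixation (1%, 10 minutes) and chromatin sheared to an average of 200 to 400 bp. Per the submitters' processing notes the tools include Bowtie2, Picard and MACS2 and the build is hg19. Tool versions, settings and roles: not given in the sources used here. By the narrowPeak format, the deposited fold is a ratio of ChIP pileup to local background at the summit, each plus 1. The −log10 values of p and q deposited with it refer to that summit too. The deposited score was not used. The input libraries behind each list are likewise not stated.

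Fold and p both depend on 1 read number and 1 Poisson background, so each peak was solved for both. At the fitted worth of a read 100% of the peaks of each list gave whole reads. The tolerance was 0.0002 in pileup plus the rounding of the deposited values (at most 0.00459 of a read). The genome-wide level is the commonest background of a list. Tested on simulated data, at least 99.95% of 4000 read numbers per list came back exact. Peaks overlapping by at least 1 bp were joined. Named sites are those in at least 3 lists, the 3 strongest peaks of each list, and those at the promoters and enhancer, and others are said to be chosen after their values were seen. The members, lists and rule were chosen with earlier results of these data known. Summit reads were to be scaled to library size; the genome-wide level replaced this because it needs no fragment length. Other settings tried were a stricter q, lists cut to equal length, 50% reciprocal overlap, a summit distance of 200 bp, and peaks that only overlap the window. Versions were Python 3.11.15, pandas 2.3.3, matplotlib 3.10.9, scipy 1.17.1 and numpy 2.4.6.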

Additional observations from a re-analysis of the deposited data

How the results depend on the processing

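No paired analysis was possible because each list is pooled over libraries and carries no replicate numbers, so no library could be left out either. The planned share of sites with a motif was not run, since no hg19 sequence was used here. Of 54 alternative counts 33 stayed within 1.5 times the reported one. Keeping peaks with −log10 q of 10 or more gave 8 SMC3 peaks in WT and 7 in Q592*; 9 GATA2 regions in Q592* only and 0 in WT only; 1 RUNX1 region in Q592* only; 6 shared and 2 WT-only SMC3 regions; and 2 (WT) and 3 (Q592*) sites with all 3 targets. With lists cut to equal length, regions of Q592* only numbered 6 (GATA2), 1 (RUNX1) and 2 (SMC3), and those of WT only 3, 1 and 1. WT-only GATA2 regions became 2 with a reciprocal overlap of 50% and 4 with summits within 200 bp, and Q592*-only SMC3 regions 2 with either. The cause of these changes was not tested, and no genome-wide shares are given beside these counts. Added after seeing the data, the 4 sites that had GATA2 with SMC3 in WT and GATA2 without SMC3 in Q592* became 0 with equal lengths and 1 at the stricter q; scaling to library size turned the SMC3 median ratio from 0.93 to 1.11, by its assumed fragment lengths, and the deposited folds gave 1.20 (GATA2) and 1.22 (RUNX1); the other 6 alternative medians differed from the reported ones by less than the spread between regions. Depth limits weak sites most: where WT had 50 reads or fewer, the interval of a ratio spans a factor above 2.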

Other observations

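Chromosome 21 had a higher local background than the genome in all 6 lists, which can share input reads and are not independent in this. Outside the window its peaks had a median local background of 2.09 (WT GATA2), 2.43 (Q592* GATA2), 2.74 (WT RUNX1), 3.43 (Q592* RUNX1), 3.05 (WT SMC3) and 3.27 (Q592* SMC3) times the genome-wide level. The medians over all peaks of the same lists were 1.51, 1.76, 1.79, 2.32, 1.98 and 2.22. Peaks of the RUNX1 window had medians of 1.91, 2.51, 2.69, 3.74, 2.88 and 4.43. The largest excess of the window over the rest of the chromosome was in Q592* SMC3, and WT GATA2, WT RUNX1 and WT SMC3 of the window were slightly below it. Copies of the chromosome were not measured, and their part in these values was not tested.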
